A study of Mus musculus with 6 samples.

Results

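The heat shock proteins and cytosolic chaperones examined here are 38 genes, chosen by symbol from a list that covers the inducible and constitutive heat shock proteins, their cochaperones, the heat shock factors and the ring chaperonin TRiC/CCT. All 38 were found among the 37187 genes of the deposited count table and all 38 passed the filter on low counts, beside 13626 genes tested in all. RNA came from CD4+CD25+GITR+ regulatory T cells (Tregs), sorted from tumour-draining lymph nodes on day 14 after C57BL6 mice received 300000 B16.F10 melanoma cells under the skin. The KO group was 3 libraries from il33-/- mice on the C57BL6 background (replicates 4, 5 and 6), and the WT group was 3 libraries from C57BL6 mice (replicates 1, 2 and 3). Every mouse of both groups carried the melanoma, so no library describes Tregs without a tumour. The labels give il33-/- as the genotype of the mouse, not of Tregs alone, the ages were not given, and nothing in the labels says that each library came from a separate animal, so a p-value here reflects only how far these libraries spread, and that spread may be technical.

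Chaperones hold, fold or refold other proteins. In the resting cell the transcription factor HSF1 is kept inactive by chaperones, and when unfolded proteins draw these away it binds heat shock elements, repeats of the bases GAA and their complement TTC, and switches on the inducible heat shock genes. Constitutive members such as Hspa8, Hsp90ab1 and the chaperonin subunits serve protein synthesis at all times, and activated T cells depend on them as they grow.

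Il33 itself had 3, 8 and 2 reads in KO libraries, against 7, 0 and 9 reads in WT libraries, too few to test or to check the labels by; which part of the gene was deleted is not stated in the labels. Total counts ran from 20877014 to 21073195 in KO libraries and from 18071928 to 21165063 in WT libraries. The Treg factor gene Foxp3 was at 857, 790 and 849 CPM (read counts scaled to a common library total with TMM factors) in KO libraries, against 729.8, 803 and 719 CPM in WT libraries, so its defining marker was present in every library. B cell markers were present as well: of 19 listed, 18 were in the table, 0 of these were at 0 in all libraries, and they summed to between 1390 and 1735 CPM in KO libraries, against 2305 to 3863 CPM in WT libraries. In RNA from a bulk sort, fewer cells of a type and less RNA per cell cannot be told apart.

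The calls between the groups lay in the 10 genes classed here as stress-inducible. The classes were set by list, and genes of other classes may also be heat-inducible. Of 38 members, 5 were higher in KO Tregs (Bag3, Hspb1, Dnajb4, Dnaja1 and Hsph1), 0 were lower and 33 did not pass, with edgeR's quasi-likelihood test and a Benjamini-Hochberg adjusted p of 0.05 as the limit. Over all genes tested this called 6.5%, with 3.68% higher and 2.83% lower in KO. The 5 were among the 10 members of the stress-inducible class, whose median log2 fold change was 0.475, against a median of 0 over all genes tested. Outside that class 0 of 28 members passed in either direction, their median was 0.027, and DESeq2 called 2 of them higher and 1 lower, where it called 3.63% of all genes higher and 4.11% lower. At an unadjusted p under 0.05, 3 of these 28 were higher and 2 were lower, where 11% of all genes were higher and 10.8% lower.

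Heat shock elements of 2 units (a two-unit match), GAANNTTC or TTCNNGAA, both of which read the same on the opposite strand, were sought in the 250 bases before each RefSeq gene start (GRCm38.p6), as were three-unit elements, GAANNTTCNNGAA or TTCNNGAANNTTC, each the complement of the other. A three-unit match always holds both two-unit forms. Windows existed for 31 of the 38 members. A two-unit match was in a window of 6 of the 9 stress-inducible members with one, 66.7%, and of 4 of the 5 genes higher in KO, against 14.5% of 27025 genes. The 5 all belong to the stress-inducible class, so these are not separate results. The other matches in the class were in Hspa1a and Hspa1b, which were not called. A gene counted if any of its windows held a match, and the 27025 genes had 32851 windows. Among chaperonin genes a two-unit match was in 2 of 7, or 28.6%. A three-unit match was in 3 members (Hspd1, Hspe1 and Dnajb6), none of which was called, and in 0.514% of all genes. The following windows, each written 5′ to 3′ on the gene's strand with matches in capitals, show the genes that rose with a match (Hspb1, chr5:135887669-135887918, plus strand; Hsph1, chr5:149636316-149636565, minus; Dnajb4, chr3:152193846-152194095, minus, the one of its windows that holds a match), the gene that rose without one (Bag3, chr7:128523333-128523582, plus), an inducible gene with a match that was not called (Hspa1b, chr17:34959239-34959488, minus) and the window with a three-unit match that Hspe1 shares with Hspd1 (Hspe1, chr1:55087898-55088147, plus). A match is a run of letters and not evidence of binding. Only exact matches within these 250 bases were sought, so a window without one does not show that the gene lacks an element.
Hspb1: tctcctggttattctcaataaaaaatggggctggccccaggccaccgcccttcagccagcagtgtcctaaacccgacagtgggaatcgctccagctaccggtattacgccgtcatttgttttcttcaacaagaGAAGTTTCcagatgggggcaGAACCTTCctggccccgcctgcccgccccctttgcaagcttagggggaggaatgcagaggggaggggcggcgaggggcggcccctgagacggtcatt
Hsph1: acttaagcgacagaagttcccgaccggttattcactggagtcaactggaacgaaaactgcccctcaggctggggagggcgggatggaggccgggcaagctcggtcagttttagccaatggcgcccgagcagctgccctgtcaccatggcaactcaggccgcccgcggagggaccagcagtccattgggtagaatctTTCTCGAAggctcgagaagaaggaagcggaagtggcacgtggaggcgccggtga
Dnajb4: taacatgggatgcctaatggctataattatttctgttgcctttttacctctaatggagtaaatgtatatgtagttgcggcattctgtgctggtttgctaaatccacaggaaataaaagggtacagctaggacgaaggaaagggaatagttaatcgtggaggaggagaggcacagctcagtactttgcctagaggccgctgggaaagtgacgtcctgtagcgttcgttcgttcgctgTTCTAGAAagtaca
Bag3: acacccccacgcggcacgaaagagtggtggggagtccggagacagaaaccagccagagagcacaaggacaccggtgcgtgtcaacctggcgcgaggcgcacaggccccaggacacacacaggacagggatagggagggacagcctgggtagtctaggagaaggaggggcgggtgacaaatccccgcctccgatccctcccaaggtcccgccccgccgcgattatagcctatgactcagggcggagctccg
Hspa1b: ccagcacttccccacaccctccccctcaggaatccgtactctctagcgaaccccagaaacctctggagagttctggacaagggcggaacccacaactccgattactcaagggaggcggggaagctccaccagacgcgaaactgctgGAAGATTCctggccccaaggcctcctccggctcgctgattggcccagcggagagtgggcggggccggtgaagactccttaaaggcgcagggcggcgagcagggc
Hspe1: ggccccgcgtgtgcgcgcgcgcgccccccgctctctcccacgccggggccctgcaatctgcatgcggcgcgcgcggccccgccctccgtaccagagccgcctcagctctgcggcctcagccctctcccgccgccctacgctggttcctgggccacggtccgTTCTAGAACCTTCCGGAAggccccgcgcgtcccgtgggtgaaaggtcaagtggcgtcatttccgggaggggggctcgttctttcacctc
In Hspe1 the capitals run over 2 overlapping three-unit matches that end 71 bases before its start. The fifth gene that rose, Dnaja1, had a two-unit match in 1 of its 3 windows.

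Levels per length were compared in FPKM, the authors' fragment counts scaled by gene length and library. Hsp90ab1, the constitutive cytosolic Hsp90, was the highest member, at 940 ± 52.4 FPKM in KO and 808 ± 61.5 FPKM in WT (SD, n = 3 each, as throughout), followed by Hspa8, the constitutive Hsp70, at 310 ± 22.7 FPKM in KO and 301 ± 25.0 FPKM in WT. The chaperonin subunits spanned 38.9 to 202 FPKM in KO and 39.4 to 198.5 FPKM in WT. Of the genes that rose, Bag3 and Hspb1 closed the order of members by WT mean, though in KO Bag3 did not stand next to last. Bag3 was at 12.1 ± 0.492 FPKM in KO and 5.34 ± 1.03 FPKM in WT, and Hspb1, the lowest member, at 2.89 ± 0.885 FPKM in KO and 1.26 ± 0.350 FPKM in WT. Hspa1b, an inducible Hsp70, was already the fourth highest member in WT, at 136 ± 22.3 FPKM in KO and 129 ± 41.7 FPKM in WT.

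**Figure D1:**
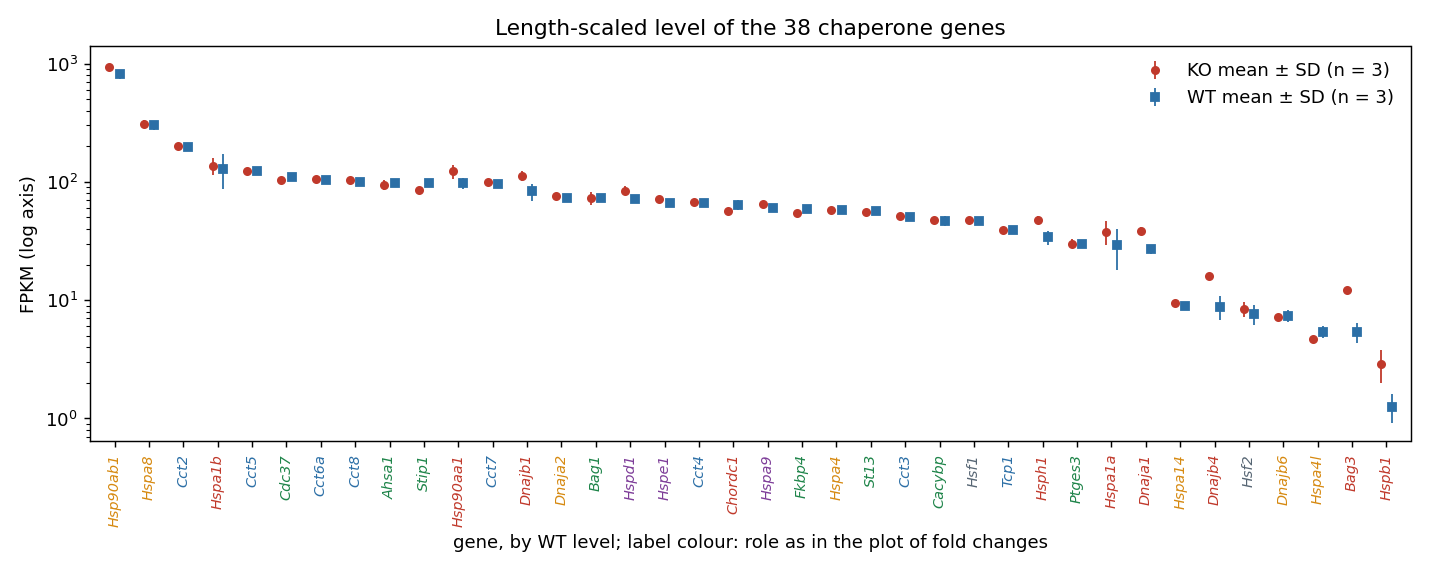
Mean FPKM (log axis) of the 38 members with SD over 3 libraries per group, KO as circles left of WT as squares, ordered by the WT mean. Members range from Hsp90ab1 at 940 FPKM in KO and 808 FPKM in WT down to Hspb1 at 2.89 FPKM in KO and 1.26 FPKM in WT, and the widest gaps between groups lie at Bag3, Hspb1 and Dnajb4.

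Bag3 showed the smallest p of all members. It encodes a cochaperone that releases clients from Hsp70 and hands them to autophagy, and lies on chromosome 7 (128523616 to 128546981, plus strand of GRCm38). It was at 30.3, 31.6 and 33.1 CPM in KO libraries, against 11.01, 14.3 and 16.3 CPM in WT libraries, with every KO library above every WT library. This was a fold of 2.29, or 1.19 ± 0.12 on the log2 scale (SE), at an edgeR adjusted p of 0.000178. Bag3 overlaps 2610306O10Rik over 612 bases on the same strand, and reads there cannot be assigned.

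Among the J domain proteins, which deliver clients to Hsp70 and stimulate its ATPase, Dnajb4 and Dnaja1 rose. Dnajb4 (chromosome 3, 152178511 to 152210302, minus strand) was at 67.1, 71.0 and 71.4 CPM in KO libraries, against 28.5, 45.2 and 40.9 CPM in WT libraries. The KO libraries lay close together and WT replicate 1 was the lowest of all. The log2 fold change of Dnajb4 was 0.87 (SE 0.16, edgeR adjusted p = 0.0323). Dnaja1 (chromosome 4, 40722150 to 40737149, plus strand), a J protein with a zinc finger region, was at 304, 353 and 348 CPM in KO libraries, against 213, 237 and 252 CPM in WT libraries. Its log2 fold change was 0.52 (SE 0.07, edgeR adjusted p = 0.00174), and the groups did not overlap. Of the 50-base stretches of Dnaja1, 18.7% also occur in other annotated genes, most of them in Gm15542. Dnaja1 overlaps Smu1 over 608 bases and Gm6297 over 249 bases on the opposite strand, and Mir207 over 79 bases on the same strand. Dnajb1, the classical heat-inducible partner of Hsp70, was at 235, 249 and 285 CPM in KO libraries, against 164, 223 and 178 CPM in WT libraries. These groups did not overlap either, but the log2 fold change of 0.45 (SE 0.13) had an edgeR adjusted p of 0.103. Dnajb1 was called by DESeq2, which called 3.63% of all genes higher, and by limma-voom, which called 2.91% higher.

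Hsph1, the inducible Hsp110 that exchanges nucleotide on Hsp70 and prevents aggregation, rose too. It (chromosome 5, 149614287 to 149636376, minus strand) was at 316, 361 and 344 CPM in KO libraries, against 202, 257 and 261 CPM in WT libraries. All KO libraries were above all WT libraries, and the log2 fold change was 0.50 (SE 0.10, edgeR adjusted p = 0.0204). Hspb1, a small heat shock protein that holds unfolded clients without ATP, had the largest fold of the members, 2.31, at the lowest depth. Hspb1 (chromosome 5, 135887919 to 135889563, plus strand) had 43, 64 and 82 reads in KO libraries, against 19, 27 and 29 reads in WT libraries, or 2.05, 3.05 and 3.90 CPM in KO libraries, against 0.902, 1.404 and 1.605 CPM in WT libraries. The groups did not overlap, and the log2 fold change was 1.21 (SE 0.31, edgeR adjusted p = 0.0367). Of its 50-base stretches, 51.6% also occur in the annotated pseudogene Hsp25-ps1, and reads from those stretches may have gone to either copy or to none. Hspb1 passed in 7 of 18 alternative settings, and limma-voom did not call it (adjusted p = 0.0727).

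The inducible Hsp70 genes themselves did not pass. Hspa1a was at 86.2, 113 and 139 CPM in KO libraries, against 50.2, 95.8 and 114 CPM in WT libraries. Hspa1b was at 327, 369 and 453 CPM in KO libraries, against 229.5, 406 and 452 CPM in WT libraries. In both genes the groups overlapped widely and WT replicate 1 was the lowest library. The log2 fold changes were 0.38 (95% interval -0.66 to 1.43) for Hspa1a and 0.08 (-0.77 to 0.93) for Hspa1b, with edgeR adjusted p-values of 0.658 and 0.926, and these intervals leave room for changes as large as those of Dnajb4. The pair lies 9951 bases apart on chromosome 17, and 58.8% of the 50-base stretches of Hspa1a occur in Hspa1b, so reads may be split between them or left out. Hspa1a also overlaps Gm20481 on the opposite strand over 2225 bases, and whether the counting used strand was not stated.

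The last 2 stress-inducible members did not pass the edgeR test and lay on opposite sides of 0. Hsp90aa1, the inducible cytosolic Hsp90, was at 412, 544 and 500.2 CPM in KO libraries, against 336, 418 and 398 CPM in WT libraries. KO replicate 4 fell within the WT range, and the log2 fold change was 0.34 (SE 0.12, edgeR adjusted p = 0.174), while DESeq2 called Hsp90aa1 higher (adjusted p = 0.00813), as did edgeR with no filter on low counts (6.16e-06) and without KO replicate 4. Of its 50-base stretches, 58.5% occur in other annotated genes, most of them in Gm12346. Chordc1, an Hsp90 cochaperone, was at 122, 127 and 129 CPM in KO libraries, against 132, 156 and 135 CPM in WT libraries. Every KO library was below every WT library, and the difference was -0.16 on the log2 scale (SE 0.07, edgeR adjusted p = 0.178). Chordc1 overlaps Gm19178 on the opposite strand over 1819 bases.

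**Figure D2:**
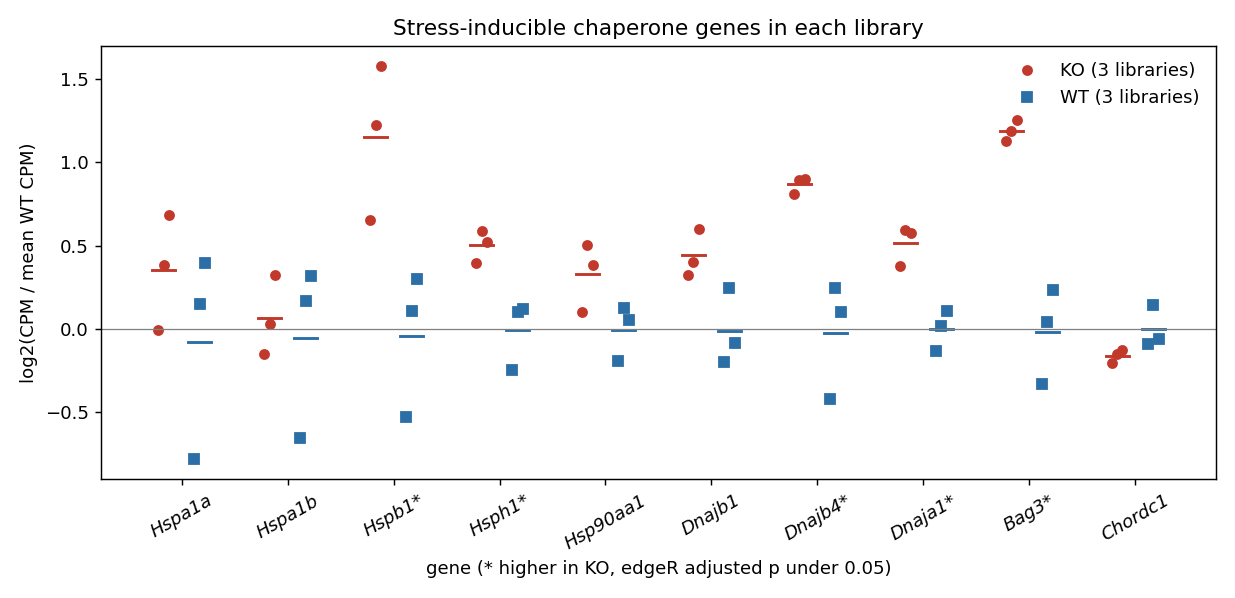
Each stress-inducible member in each library as log2 of CPM over the mean WT CPM, KO as circles left of WT as squares, with bars at group means and a star where the edgeR adjusted p was under 0.05. Bag3 and Dnajb4 form tight KO groups above all WT libraries, Hspa1a and Hspa1b overlap, and Chordc1 is below WT in all 3 KO libraries.

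Over all 38 members, every KO library was above every WT library for 9 genes and below for 3, where 13.7% and 12.6% of all genes tested were so placed. Within the stress-inducible class the counts were 6 above and 1 below, and among the 28 other members 3 above and 2 below.

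The constitutive Hsp70, Hsp90 and Hsp40 genes numbered 7, with log2 fold changes from -0.217 to 0.221 and none past the test. Hsp90ab1 was at 2676, 2823 and 3011 CPM in KO libraries, against 2239, 2601 and 2460 CPM in WT libraries. The groups did not overlap, and the fit gave 0.22 on the log2 scale (SE 0.06, edgeR adjusted p = 0.0608). DESeq2 called Hsp90ab1 higher (adjusted p = 0.0161), and it passed in 5 of 18 alternative settings. Hspa4l, an Hsp110 relative, was at 59.3, 52.8 and 53.5 CPM in KO libraries, against 56.5, 69.8 and 66.4 CPM in WT libraries, or -0.22 on the log2 scale (SE 0.08, edgeR adjusted p = 0.142). Hspa4l passed as lower in 2 of 18 alternative settings, with no filter on low counts and without WT replicate 1. Both genes lay at the edges of the class, on opposite sides of 0. Hspa14, a ribosome-associated Hsp70, was at 73.8, 79.0 and 76.3 CPM in KO libraries, against 71.7, 75.0 and 70.3 CPM in WT libraries (log2 fold change 0.08, 95% interval -0.05 to 0.20). These Hspa14 values belong to an ID that the authors' tables pair with that name but GENCODE M21 calls Gm45902. In M21 a separate gene named Hspa14 overlaps it on the same strand over its whole length of 8264 bases, and that ID was not analysed here, so the values may hold reads of either gene model. Dnaja2, a constitutive relative of Dnaja1, was at 211, 215 and 218 CPM in KO libraries, against 201, 207 and 219 CPM in WT libraries (log2 fold change 0.04). In these last 2 genes the groups overlapped. Hspa8 had 0.05 (-0.11 to 0.20), the Hsp110 relative Hspa4 0.0011 and Dnajb6, whose product suppresses aggregation, -0.04 on the log2 scale. Hspa8 shares 51.4% of its 50-base stretches with other annotated genes and Dnajb6 35.8%.

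The mitochondrial chaperones Hspa9, Hspd1 and Hspe1 were at log2 fold changes of 0.12, 0.24 and 0.11 and did not pass. Hspd1, the Hsp60 that forms the folding chamber of the mitochondrial matrix, was at 203, 237 and 234 CPM in KO libraries, against 175, 204 and 190 CPM in WT libraries (SE 0.07, edgeR adjusted p = 0.0667). KO replicate 4 lay just inside the WT range. DESeq2 called Hspd1 higher (adjusted p = 0.0292), and Hspd1 passed in 5 of 18 alternative settings. Hspe1, its lid, was at 104, 104 and 110.1 CPM in KO libraries, against 89.5, 103.9 and 101 CPM in WT libraries (edgeR adjusted p = 0.354). Hspd1 and Hspe1 lie head to head on chromosome 1 and their gene models overlap by 112 bases, and 44.8% of the 50-base stretches of Hspd1 occur in other annotated genes. Hspa9, the Hsp70 that pulls proteins into the matrix, was above WT in all 3 KO libraries, at 255, 260.0 and 256 CPM in KO, against 241, 237 and 234 CPM in WT (edgeR adjusted p = 0.188).

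The 8 cochaperones of Hsp70 and Hsp90 had a median log2 fold change of -0.033, and 0 passed. Stip1, which bridges Hsp70 and Hsp90, came closest. It was at 183, 188 and 193 CPM in KO libraries, against 209.8, 217 and 214 CPM in WT libraries. The groups were narrow and did not overlap, and the difference was -0.18 on the log2 scale (SE 0.05, edgeR adjusted p = 0.0522). DESeq2 called Stip1 lower (adjusted p = 0.023), and Stip1 passed in 4 of 18 alternative settings. Cdc37, the adaptor for protein kinases, was at 251, 253 and 264 CPM in KO libraries, against 265, 276 and 269 CPM in WT libraries, or -0.08 on the log2 scale (SE 0.05, edgeR adjusted p = 0.439). Its groups did not overlap either, by a narrow margin. Fkbp4, a partner of Hsp90 in steroid receptor complexes, was at 144, 155 and 163 CPM in KO libraries, against 159.8, 174 and 163 CPM in WT libraries (edgeR adjusted p = 0.358). Ahsa1, which activates the Hsp90 ATPase, was at 116, 126 and 141 CPM in KO libraries, against 127, 139 and 131 CPM in WT libraries (edgeR adjusted p = 0.749). The groups overlapped in both. Bag1, which exchanges nucleotide on Hsp70, St13, which stabilizes its ADP-bound form, Cacybp, a binding partner of S100 proteins, and Ptges3, the Hsp90 cochaperone p23, lay between -0.015 and 0.027.

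The transcription factor genes did not pass. Hsf1, the main switch of the heat shock response, whose activity is set largely after translation, was at 96.6, 95.7 and 98.2 CPM in KO libraries, against 92.5, 97.7 and 93.3 CPM in WT libraries (log2 fold change 0.04, 95% interval -0.08 to 0.15). Hsf2, which can form trimers with Hsf1, was at 21.9, 25.2 and 18.9 CPM in KO libraries, against 16.4, 24.2 and 19.98 CPM in WT libraries (0.13, -0.20 to 0.45). In both genes the groups overlapped.

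The chaperonin TRiC/CCT, a ring of different subunits that folds actin and tubulin, held no gene that passed. All 8 subunit genes overlapped between the groups, and the log2 fold changes ran from -0.017 for Tcp1 to 0.067 for Cct7. The 95% intervals of all 8 lay between -0.133 and 0.203. Cct2, the highest subunit, was at 379, 407 and 408 CPM in KO libraries, against 380.3, 404 and 389 CPM in WT libraries. Cct7 was at 233, 246 and 261 CPM in KO libraries, against 223, 253 and 229 CPM in WT libraries (edgeR adjusted p = 0.605). Cct8 was at 305, 320.4 and 332 CPM in KO libraries, against 300.3, 316 and 313 CPM in WT libraries (adjusted p = 0.713 in the edgeR test). Cct4 was at 273, 289 and 296 CPM in KO libraries, against 276, 282 and 280.1 CPM in WT libraries (edgeR adjusted p = 0.753). Cct6a was at 159, 178 and 176 CPM in KO libraries, against 166, 173 and 162 CPM in WT libraries (edgeR adjusted p = 0.782). KO replicate 4 was the lowest KO library in each of these 5 subunits.

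**Figure D3:**
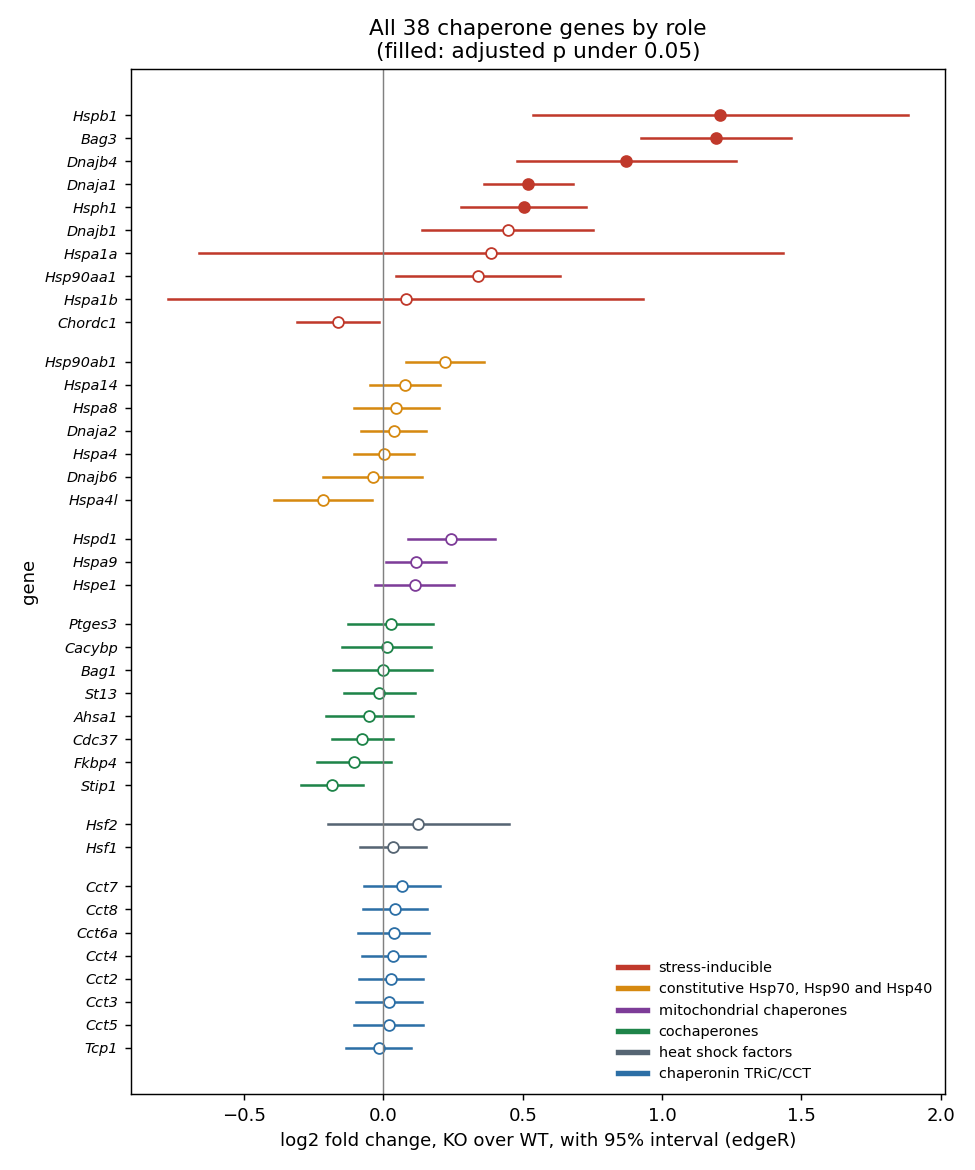
Log2 fold change of KO over WT for the 38 members with 95% intervals from the edgeR fit, grouped by role; filled circles passed an adjusted p of 0.05. The 5 filled circles all lie in the stress-inducible class, while the 8 chaperonin subunits sit between -0.017 and 0.067 with intervals from -0.133 to 0.203.

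Set against the chaperonin genes within each library, the stress-inducible genes stood higher in KO. The mean log2 CPM of the 10 stress-inducible genes minus that of the 8 chaperonin genes was -1.29, -1.17 and -1.09 in KO libraries, against -1.99, -1.59 and -1.52 in WT libraries. The groups did not overlap, and the KO mean was higher by 0.517 on the log2 scale, a value given without a test. It was 0.371 without WT replicate 1, in which the stress-inducible genes summed to 1367 CPM, against 1854 and 1848 CPM in WT replicates 2 and 3. The same sum was 1901, 2221 and 2308 CPM in KO libraries. The class means of mitochondrial chaperones differed by 0.158 and those of cochaperones by -0.051.

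Other measures also differed between the groups. B cell marker signal was highest in WT replicate 1 (3863 CPM), the library lowest in stress-inducible transcripts. WT replicates 2 and 3 held 2305 and 3167 CPM of it, with stress-inducible sums of 1854 and 1848 CPM. KO libraries held 1391, 1735 and 1390 CPM of it, with stress-inducible sums of 1901, 2221 and 2308 CPM. When the mean B cell marker level was added to the edgeR model, 0 members passed (0.183% of all genes were higher and 0.11% lower), and the stress-inducible excess over the chaperonin was 0.230. That marker level ran from 4.27 to 4.99 log2 CPM in KO libraries and from 5.40 to 6.85 log2 CPM in WT libraries. With no overlap between the groups, this model cannot cleanly tell group from B cell signal. In that model the log2 fold change was 0.99 for Bag3 (edgeR adjusted p = 0.13), 0.71 for Hspb1 (0.77), 0.46 for Dnaja1 (0.305), 0.41 for Dnajb4 (0.568) and 0.32 for Hsph1 (0.629). Of 36 genes listed as induced by tissue dissociation or as immediate early genes, 20 rose, 0 fell and 16 did not pass. This was in the main edgeR test, where 3.68% of all genes were higher in KO and 2.83% lower. The 36 genes summed to 19320, 18384 and 17841 CPM in KO libraries, against 10876, 12812 and 12563 CPM in WT libraries. In this sum and in the stress-inducible sum, every KO library was above every WT library and WT replicate 1 was the lowest. Among KO libraries, replicate 4 was highest in the 36 genes and lowest in the stress-inducible sum. Of 10 Treg markers tested, 4 rose and 0 fell in that same main test. These markers summed to between 5327 and 5554 CPM in KO libraries, against 4235 to 4913 CPM in WT libraries. The part of B cells, of handling or of Treg content in the result was not tested.

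**Figure D4:**
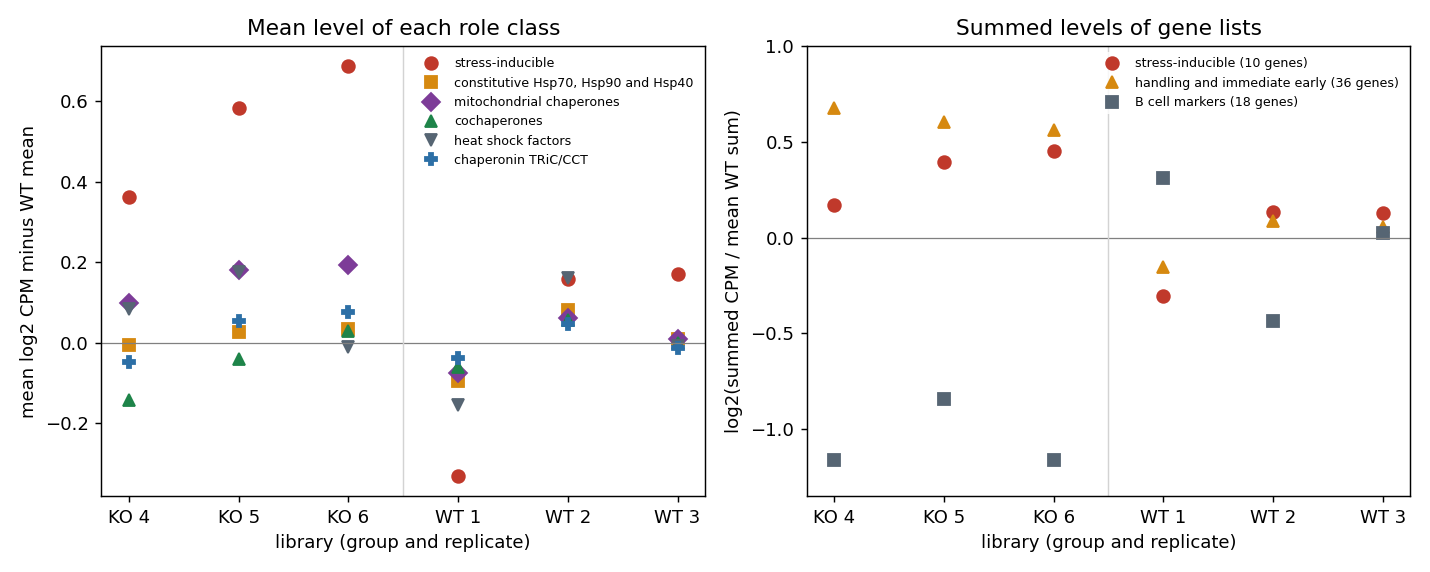
Left, mean log2 CPM of each role class in each library minus the WT mean; right, log2 of the summed CPM of the stress-inducible genes, the handling and immediate early list and the B cell markers over their mean WT sums. The stress-inducible class is highest in KO replicates 5 and 6 and lowest in WT replicate 1, and the chaperonin class stays near 0 throughout.

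Other genes of chaperone pathways, on lists outside the 38, gave few calls. Of 86 tested, 3 rose, 0 fell and 83 did not pass, so that 3.49% were higher against 3.68% of all genes, with a median log2 fold change of 0.016. Hspa12a, a distant Hsp70 relative, was at 8.58, 8.39 and 8.52 CPM in KO libraries, against 5.74, 4.78 and 4.70 CPM in WT libraries, or 0.74 on the log2 scale (SE 0.15, edgeR adjusted p = 0.0101). Dnaja4, a relative of Dnaja1, was at 17.9, 24.3 and 22.2 CPM in KO libraries, against 14.5, 16.8 and 16.3 CPM in WT libraries (edgeR adjusted p = 0.0468). Unc45a, an Hsp90 cochaperone for myosin, was at 119, 118 and 119.6 CPM in KO libraries, against 105, 102 and 105 CPM in WT libraries (edgeR adjusted p = 0.0479). By list, 1 of 9 small and inducible relatives, 1 of 29 J domain proteins, 1 of 23 other Hsp70 and Hsp90 cochaperones, 0 of 15 prefoldin and chaperonin partners and 0 of 10 mitochondrial and disaggregase partners rose.

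The calls differed in how firmly they held. Bag3 and Dnaja1 passed whichever single library was left out, and their edgeR adjusted p then reached at most 0.0037 and 0.0205. Hsph1 no longer passed without KO replicate 5 (0.0753) or KO replicate 6 (0.116), nor with limma on log2(FPKM + 1) (0.0521). Dnajb4 no longer passed without KO replicate 4, 5 or 6 or WT replicate 3 (up to 0.115), nor Hspb1 without KO replicate 5 or 6 or WT replicate 1 or 3 (up to 0.163). Members higher in KO numbered 2 without KO replicate 5 (background 1.8%), 2 without KO replicate 6 (1.95%), 3 without WT replicate 3 (1.71%) and 8 without WT replicate 2 (4.47%).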

How the data were processed

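RNA of 6 libraries was counted. Raw counts by Ensembl ID, and normalized counts and FPKM by symbol, were deposited by the authors. The deposited normalized count is a signal: in each library it was the raw count over a single factor for 99.862% or more of 12336 genes, within 1e-06. The submitters' processing notes name bcl2fastq, STAR 2.4.2a, DESeq2 and GRCm38; neither counter nor strand use is stated there. Positions are from GENCODE M21 (35412 of 37187 IDs matched). Hspa14 is the row the authors' tables pair with that name, which GENCODE M21 names Gm45902; the authors' other row of that name had 0 reads.

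Raw counts were tested with edgeR 4.0.16 (R 4.3.3): filterByExpr, TMM, robust quasi-likelihood, two-sided, Benjamini-Hochberg over 13626 genes, threshold 0.05, checked on simulated data. Alternatives used DESeq2 1.42.0, limma 3.58.1, other scalings and filters, log2(FPKM + 1), and omission of libraries. Standard errors came from the F statistic. Shared 50-base stretches were sought in GENCODE transcripts, using each member's longest. Replicate pairs differed beyond sampling noise (chi-square over degrees of freedom 5.16 to 14.6).

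Members, role classes and lists were chosen with earlier results of these data known. Per-library values were given for members past the test and up to 4 with the smallest p in each class; Cct2 was added as the highest chaperonin subunit, after its values were seen.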

Additional observations from a re-analysis of the deposited data

How the results depend on the processing

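Of 684 values of single members under 18 alternatives, 574 kept direction and side of the threshold, 27 no longer passed, 24 newly passed and 59 turned sign. None of the sign changes was in the 5 called genes or had an adjusted p under 0.05. Members higher in KO numbered 5 in the main edgeR test, 9 by DESeq2 and with no filter on low counts, 3 on log2(FPKM + 1) or log2(FPKM + 0.1), 0 on log2(FPKM + 1) with no filter and 0 once the mean level of B cell markers entered as a covariate. Over all genes tested, 501 of 13626 were higher in the main test, 545 of 15000 by DESeq2 and 806 of 24068 with no filter. On log2(FPKM + 1) this was 241 of 12128, on log2(FPKM + 0.1) 237 of 12128 and on unfiltered log2(FPKM + 1) 11 of 21069. With the covariate it was 25 of 13626. Members lower in KO numbered 0, but 1 with RLE factors, by DESeq2 and on log2(normalized count + 1), and 2 with no filter. Of all genes tested, 385 of 13626 were lower in the main test and also with RLE factors. By DESeq2 617 of 15000 were lower, on log2(normalized count + 1) 316 of 12128 and with no filter 839 of 24068. Genes called numbered 886, against 1645 with no filter, 347 and 351 on log2(FPKM + 1) and log2(FPKM + 0.1), 18 unfiltered, 40 with the covariate and 282 without WT replicates 1 and 3. The filtered FPKM and normalized-count fits covered 12128 genes whose symbols matched and the unfiltered FPKM fit 21069. The covariate, whose level did not overlap between the groups, moved the stress-inducible excess over the chaperonin to 0.230. Leaving out single libraries gave 367 to 1364 genes called, 2 to 8 members higher, 0 to 1 lower and an excess of 0.371 to 0.608. The cause of these changes was not tested.

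The log2 fold changes that turned sign were as follows. Hspa4 became -0.0024 with RLE factors, on log2(FPKM + 1) filtered or not, log2(FPKM + 0.1) and log2(normalized count + 1), -0.0022 by DESeq2 and -0.00029 with no filter. With upper-quartile factors Bag1 became 0.019, St13 0.008 and Tcp1 0.0051. With the covariate Hspa1a became -0.203, Hspa1b -0.498, Dnajb1 -0.024, Hspa8 -0.182, Hspa4 -0.028, Hspe1 -0.076, Cacybp -0.171, Ptges3 -0.086, Hsf1 -0.054, Hsf2 -0.149, Cct2 -0.048, Cct3 -0.064, Cct5 -0.102, Cct6a -0.018, Cct7 -0.131 and Cct8 -0.032. Without WT replicates 1 and 3, where the lone WT library is assumed to vary like the others, Hspa1b became -0.085, Hspa8 -0.068, Hspa4 -0.027, Cacybp -0.088, Ptges3 -0.044, Hsf1 -0.012, Hsf2 -0.135, Cct2 -0.019, Cct3 -0.032, Cct5 -0.052, Cct6a -0.013 and Cct7 -0.039. When single libraries were left out, Hspa1b ran from -0.164 to 0.268, Hspa8 from -0.01 to 0.112, Hspa4 from -0.016 to 0.02, Bag1 from -0.083 to 0.097, Ahsa1 from -0.126 to 0.016, Tcp1 from -0.038 to 0.017, Cacybp from -0.066 to 0.068, St13 from -0.06 to 0.026, Ptges3 from -0.015 to 0.098, Cct3 from -0.0021 to 0.06, Cct5 from -0.01 to 0.06, Hsf2 from -0.0051 to 0.28 and Dnajb6 from -0.107 to 0.054.

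No paired analysis was possible because the groups share no replicate numbers. Depth limits Hspb1 most, with 19 reads in WT replicate 1.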
